A study of Mus musculus with 2 samples.

Results

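Among immune cells sorted from mouse gliomas, 244 of 15723 cells carried transcripts of Lyz2, the lysozyme gene of myeloid cells, together with Il1b, Fn1, F10 or Ly6i, but next to no Ly6c2, the surface antigen gene of classical monocytes. They were chosen by raw UMI counts, a UMI being 1 captured transcript. A cell needed at least 3 UMIs of Lyz2, at least 5 UMIs of Fn1, F10, Ly6i and Il1b together, and at most 1 UMI of Ly6c2. Cells with the arginase and mannose receptor transcripts were kept out, with Arg1 and Mrc1 together held to at most 2 UMIs or under 10 per 10000. Limits on microglial, dendritic, T cell, neutrophil and cell cycle genes kept out other cell types. These values chose the cells, so the levels of these genes are given as a description. The cells were almost all from 1 library: 234 came from the PBS library and 10 from the EM library.

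The study's title concerns adoptive macrophages in glioblastoma, so the comparison of EM with PBS asks how host immune cells differed after treatment. Viable cells that carried CD45.2 and lacked CD45.1, the host's own immune cells by the labels, were sorted from mouse tumours treated with PBS or with EM and profiled on the BD Rhapsody system, which captures cells with barcoded beads in microwells. There was 1 library per treatment, and the title of the EM library gives 72 h while that of the PBS library gives no time. What EM stands for, the strain, sex and age of the mice, the glioma line and the number of animals per library are not stated in the labels. With 1 library per group there is no test of any difference, and every interval below is a 95% interval that covers counting error only. The PBS library held 8333 barcodes and 45043934 UMIs, and the EM library 8039 barcodes and 19385631 UMIs. After filtering, cells held a median of 4303 UMIs in PBS and 2016 in EM, and 66 barcode sequences occurred in both libraries, 1 of them that of a PBS cell described here. Within these cells sex-linked transcripts differed between the libraries, with Xist at 6.64 CPM (UMIs per 1000000 summed) in PBS and 189 in EM, and Ddx3y at 204 CPM in PBS and at 0 UMIs in EM.

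Il1b encodes interleukin 1 beta, a cytokine that macrophages make as an inactive precursor on sensing damage or microbes and release after cleavage by the inflammasome. Ptgs2 encodes cyclooxygenase 2, the inducible enzyme of prostaglandin synthesis, which interleukin 1 itself can induce. In tumours, monocytes that enter from blood lose Ly6c2 as they mature into macrophages, which gain the complement C1q genes, Apoe and Mertk.

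The label of the cells names Il1b and Fn1, but the data matched it only in part. Il1b, at 5 or more UMIs, admitted 207 of the 234 PBS cells, and 126 of them entered on Il1b alone, with fewer than 5 UMIs of Fn1, F10 and Ly6i together. Fn1, the gene of the matrix protein fibronectin, reached 5 UMIs in 19 cells, and in 4 of those the other 3 genes summed to fewer than 5. A sum of Fn1, F10 and Ly6i of at least 5 was found in 100 cells, and 81 of these also had at least 5 Il1b UMIs. Another 8 cells passed only by adding both, and 9 cells had no Il1b UMI. UMIs of 1, 2, 3 and 4 of the genes were present in 46, 92, 72 and 24 cells. The cells are therefore called Il1b-led cells here.

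Macrophage markers that the choice did not use were detected in these cells. In the PBS Il1b-led cells Csf1r, the receptor for the macrophage growth factor, was detected in 93.6% of cells and Cd68, a lysosomal macrophage glycoprotein, in 82.9%. C1qa stood at 889 CPM with UMIs in 60.3% of cells, and Mertk, a receptor for dying cells, at 296 CPM with UMIs in 54.7%. The T cells of the same library (at least 3 UMIs of Cd3d, Cd3e and Cd3g together and no Lyz2 UMI), which should lack these genes, had UMIs of Csf1r in 2.85%, of Cd68 in 8.21%, of C1qa in 2.55% and of Mertk in 2.97% of 3372 cells, at a median of 4565 UMIs against 7222 in the Il1b-led cells.

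Markers of other cell types were present to different degrees. None of the 6 basophil and mast cell genes had a UMI. Of 10 conventional dendritic genes 7 had UMIs, with Flt3, Xcr1 and Ccr7 at 0, and the list summed to 142 CPM against 92.3 CPM in the other Lyz2 cells of the library, with 5 or more UMIs in 14 of the 234 cells. Of 14 neutrophil genes 11 had UMIs, with Ly6g, Camp and Ngp at 0, and the list summed to 1014 CPM against 1508, ranging from 0 to 81 UMIs per cell with 5 or more in 119 cells. Most of that sum was Il1r2, a decoy receptor for interleukin 1, with 1472 of the list's 1833 UMIs. The list includes S100a8 and S100a9, which the choice held low in the Il1b-led cells. In the other Lyz2 cells these gave 4398 and 5455 of the list's 22903 UMIs, so the lower sum does not describe the remaining neutrophil genes. Csf3r, the receptor for the neutrophil growth factor, had UMIs in 35.0% of the Il1b-led cells and 42.1% of the other Lyz2 cells. All 10 microglial genes had UMIs, and the list summed to 315 CPM against 871, with 5 or more UMIs in 33 cells and at most 42. T cell genes summed to 58.6 CPM against 336, and B and plasma cell genes to 105 against 849. The dendritic, microglial and T cell lists also include genes that the choice limited, so their sums are in part set by it.

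Where the promoter sequence was at hand it is shown for 4 genes that the results turn on: Il1b, by which most cells entered, Ptgs2, the marker outside the choice, and Ccl17 and Tnip3, among the genes highest against the other Lyz2 cells. Each line is the 250 bases before the RefSeq transcription start in GRCm38.p6, 5′ to 3′ on the gene's strand, and capitals mark matches to an NF-kB-like motif, GGG and CC with any 5 bases between them, searched on both strands.
Il1b, chr2:129371140-129371389, minus strand: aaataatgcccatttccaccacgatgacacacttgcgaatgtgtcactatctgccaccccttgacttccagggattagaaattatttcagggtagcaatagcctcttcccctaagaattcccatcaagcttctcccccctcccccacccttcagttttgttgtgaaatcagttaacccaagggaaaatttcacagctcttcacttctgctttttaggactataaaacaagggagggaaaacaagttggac
Ptgs2, chr1:150099781-150100030, plus strand: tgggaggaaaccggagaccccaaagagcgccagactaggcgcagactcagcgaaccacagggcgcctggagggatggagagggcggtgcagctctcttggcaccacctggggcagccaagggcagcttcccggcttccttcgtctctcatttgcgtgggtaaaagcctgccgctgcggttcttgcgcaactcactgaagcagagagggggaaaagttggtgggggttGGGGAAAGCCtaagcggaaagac
Ccl17, chr8:94810203-94810452, plus strand: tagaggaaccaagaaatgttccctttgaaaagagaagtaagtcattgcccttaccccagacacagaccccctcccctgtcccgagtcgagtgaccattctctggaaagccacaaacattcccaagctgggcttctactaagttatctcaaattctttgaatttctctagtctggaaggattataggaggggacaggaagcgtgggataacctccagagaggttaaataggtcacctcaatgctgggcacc
Tnip3, chr6:65590148-65590397, plus strand: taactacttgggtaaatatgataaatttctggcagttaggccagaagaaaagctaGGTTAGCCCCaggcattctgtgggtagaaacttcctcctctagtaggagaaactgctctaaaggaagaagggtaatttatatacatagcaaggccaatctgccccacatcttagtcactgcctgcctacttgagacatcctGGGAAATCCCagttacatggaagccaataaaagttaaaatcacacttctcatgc
The Ptgs2 window held 1 match, starting 23 bases before the start. The Tnip3 window held one at 195 bases and one at 54 bases before the start, the second reading as a match on both strands, and this start lies inside the longer gene model of the GENCODE annotation. The Il1b and Ccl17 windows held none, and no window shown held TGANTCA, an AP-1-like motif, or TGACGTCA, the cyclic AMP response element. The NF-kB-like motif occurred in 50.8% of 32851 promoter windows of 300 bases, TGANTCA in 7.81% and TGACGTCA in 1.79%, so a match to the first is common and describes letters only. Of 17 genes looked up, 11 were in the promoter table.

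Il1b-led cells made up 3.02% of the 7756 PBS cells (95% exact binomial interval 2.65 to 3.42%) and 0.126% of the 7967 EM cells (0.0602 to 0.231%). The ratio of the shares, EM over PBS, was 0.0416 (0.0197 to 0.0779). Within Lyz2 cells they were 234 of 1770 in PBS, or 13.2% (11.7 to 14.9%), and 10 of 614 in EM, or 1.63% (0.784 to 2.97%), a ratio of 0.123 (0.0583 to 0.231). Depth bears on these shares, since a fixed number of UMIs is harder to reach in a shallower cell: the other Lyz2 cells held a median of 9735.5 UMIs in PBS and 1283.5 in EM. When the sum of the 4 genes was set at 10 per 10000 UMIs instead, 226 PBS cells and 57 EM cells qualified and the ratio was 0.246 (0.180 to 0.330). With every cell thinned to 2000 UMIs and shallower cells left out, 209 of 6121 PBS cells and 9 of 4032 EM cells qualified, a ratio of 0.0654, but 108 of those 209 PBS cells were among the 234, since thinned cells also passed the upper limits more readily. Within Lyz2 cells the sum per 10000 gave 12.8% in PBS and 9.28% in EM, a ratio of 0.727 (0.534 to 0.976), and thinning to 2000 UMIs gave 15.7% and 4.50%, a ratio of 0.286. The EM share was lower under each, and within Lyz2 cells by much less with the sum per 10000. That sum asks for fewer UMIs in shallower cells, while the upper limits stayed in raw UMIs, so it is not a comparison at equal depth. Of the cells it admitted, 210 of 226 in PBS and 10 of 57 in EM were among the Il1b-led cells.

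The limits that other Lyz2 cells failed differed between the libraries. In PBS, 916 of the 1770 Lyz2 cells exceeded the limit on Arg1 and Mrc1, 360 of them failing nothing else, and 375 had too low a sum. In EM, 504 of 614 had too low a sum, 283 of them failing nothing else, and 30 exceeded the limit on Arg1 and Mrc1. Ly6c2 above 1 UMI was found in 253 PBS and 186 EM Lyz2 cells. Values on both sides of the limits in PBS were as follows, with no test. The 9 cells with a sum of 5 stood at 329 CPM of Il1b and 316 of Ptgs2, and the 12 cells with a sum of 4 at 325 and 213. The 33 cells with 1 Ly6c2 UMI stood at 3811 CPM of Il1b and 1457 of Plac8, and the 14 Lyz2 cells that failed only by having 2 such UMIs at 4613 and 1985. Of cells with more than 2 UMIs of Arg1 and Mrc1, 58 with 5 to under 10 per 10000 had Il1b at 1665 CPM and 58 with 10 to under 15 at 1603 CPM. Ccl17, a chemokine gene described below, was higher just outside the limit on the sum, at 628 CPM (56 UMIs) against 92.2 (7 UMIs) inside. It was lower just outside the limits on Ly6c2, at 52.6 against 93.1, and on Arg1 and Mrc1, at 8.45 against 24.6.

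Of the markers, Il1b stood at 2673 CPM in the PBS Il1b-led cells (2598 to 2750), with a median of 18 UMIs per cell and at most 78, and at 1558 CPM in the other Lyz2 cells. Its share of cells with UMIs was 96.2% against 80.2%, so Il1b was also common among the other Lyz2 cells of this library. The choice used Il1b, so its higher level and share in the Il1b-led cells are in part set by it. The gene lies at chr2:129364570-129371139 on the minus strand. In the T cells, Il1b was at 39.3 CPM with UMIs in 6.44% of cells, taken here as the level that free RNA gives. In the 10 EM cells Il1b stood at 1663 CPM (1209 to 2233) from 44 UMIs.

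Fn1 (chr1:71585520-71653200, minus strand) was not higher in these cells: it stood at 166 CPM (148 to 186) with UMIs in 32.1% of cells, against 216 CPM and 38.8% in the other Lyz2 cells and 548 CPM in the Lyz2 cells with Ly6c2. F10, the gene of coagulation factor X (chr8:13037308-13056676, plus strand), stood at 355 CPM with UMIs in 65.4% of cells, against 187 CPM and 50.8%. Ly6i, a gene of the Ly6 surface antigen family (chr15:74979534-74983430, minus strand), stood at 204 CPM with UMIs in 38.0% of cells, against 85.0 CPM and 20.5%. At full depth F10 had UMIs in most cells, and Fn1 and Ly6i in a minority. With the Il1b-led cells thinned to 2000 UMIs, F10 was found in 41.5%, Ly6i in 24.4% and Fn1 in 18.9%. The choice used all 3 genes, so these shares are in part set by it. Little of the Ly6i sequence was shared with its neighbours in the family: of 1156 stretches of 50 bases in its transcripts, 0% occurred in those of Ly6c2 and 2.68% in those of Ly6a.

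Ptgs2 (chr1:150100031-150108227, plus strand) was not part of the choice and stood at 511 CPM (479 to 545) in the PBS Il1b-led cells, against 338 CPM in the other Lyz2 cells, a log2 ratio of 0.60 (0.49 to 0.70). It had UMIs in 54.7% of Il1b-led cells, 41.1% of the other Lyz2 cells and 1.93% of T cells. By level, Lyz2 cells with Ly6c2 came first at 697 CPM (637 to 762), then the Il1b-led cells, then the cells with Arg1 and Mrc1 at 312 and the C1q cells at 111. Ptgs1, the constitutive cyclooxygenase, ran the other way, at 164 CPM in the Il1b-led cells and 333 in the other Lyz2 cells, a log2 ratio of -1.02. In the EM Il1b-led cells Ptgs2 had 0 UMIs, where 1 UMI equals 37.8 CPM. Thinned to 2000 UMIs, which 217 of the 234 cells reached, Ptgs2 was found in 40.1% of Il1b-led cells and 27.4% of the other Lyz2 cells, and Fn1 in 18.9% and 21.5%.

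**Figure D1:**
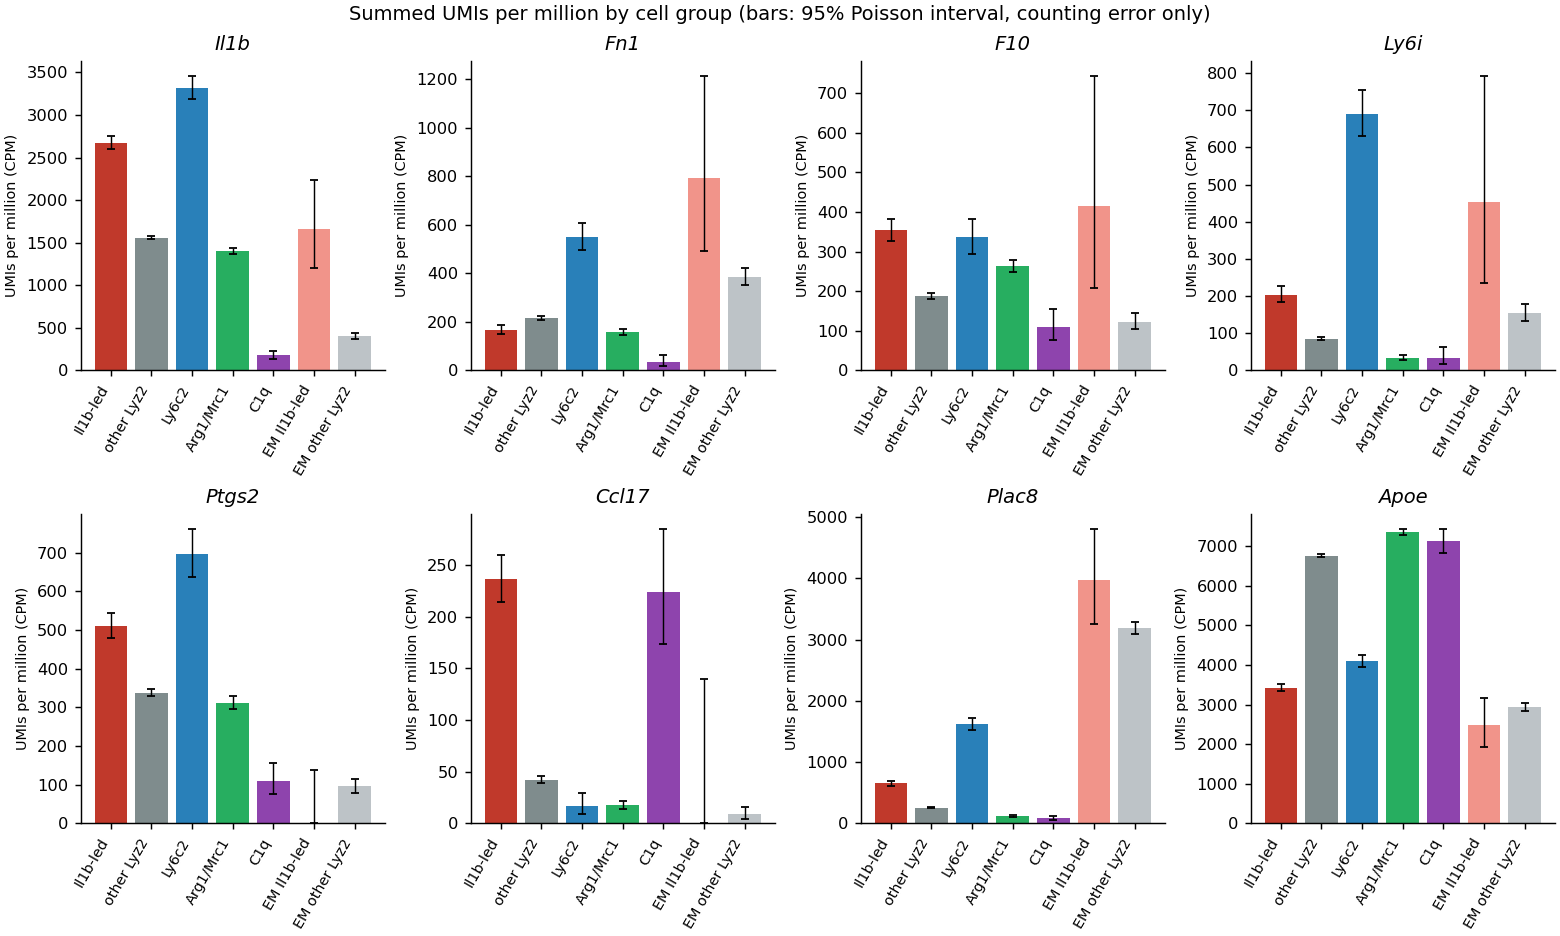
Summed CPM (linear axes from 0) of 8 genes in each kind of cell, 1 panel per gene, with exact 95% Poisson intervals as error bars. Il1b and Ptgs2 were highest in the PBS cells with Ly6c2 and next in the PBS Il1b-led cells, Ccl17 was highest in the Il1b-led and C1q cells, and the EM Il1b-led cells rest on 10 cells.

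Against the other 1536 Lyz2 cells of the PBS library, few genes stood apart. A gene was counted as higher or lower past a 2-fold ratio of CPM, for genes that reached 50 CPM in the higher group and 100 UMIs over both groups. Of 3671 such genes 14 were higher, 0.381%, and 62 were lower, 1.69%, with a median log2 ratio of 0.01 over all. Ly6i, 1 of the 14, is part of the choice. The highest was Ccl17, a chemokine that attracts T cells bearing the receptor Ccr4, at 236 CPM against 42.1, a log2 ratio of 2.49 (2.31 to 2.67). It had UMIs in 17.9% of Il1b-led cells, 6.32% of the other Lyz2 cells and 0.297% of T cells. When the choice was narrowed to the 206 cells with at most 1 UMI of Csf3r, Cxcr2 and Retnlg together, its log2 ratio was 1.69. The cells dropped by that limit then counted among the comparison cells, which bears on this fall.

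The other higher genes were of a few kinds. Signalling and surface proteins were Il1r2 at 814 CPM against 393, Nrg1, a ligand of ErbB receptors, at 114 against 42.9, and Tnip3, a protein that binds A20 and restrains NF-kB, at 66.9 against 21.7 with a log2 ratio of 1.62 (1.31 to 1.93). Klrk1, the NKG2D receptor, and Olr1, a receptor for oxidised lipoprotein, had log2 ratios of 1.12 and 1.10. Genes shared with monocytes were Plac8 at 656 CPM against 255, a log2 ratio of 1.36 (1.27 to 1.46), and Ccr2, the receptor by which monocytes leave the marrow, at 257 against 128. Plac8 and Ccr2 had UMIs in 58.8% and 21.1% of T cells too, which are known to express them, so T cells set no background for these. Ndrg1, known to be induced by low oxygen, and Pfkp, a phosphofructokinase of glycolysis, had log2 ratios of 1.35 and 1.02. Dcstamp, a membrane protein needed for macrophage fusion, stood at 52.0 CPM against 16.3, a log2 ratio of 1.67 that was 1.05 under the same limit on Csf3r, Cxcr2 and Retnlg. Rab11fip1 and Isg15 completed the set at 1.09 and 1.04.

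In the lower set the genes with the lowest ratios were Retnlg, Pclaf, Jchain, Ube2c, Stmn1, Cenpe, Ms4a4b, Gzmb, Cd8a and Smc2. These mark neutrophils, dividing cells, plasma cells and lymphocytes. The choice limited neutrophil, cell cycle and T cell genes, but no gene of plasma cells. When the comparison cells were held to the same limits on other cell types, 9 genes were higher and 36 lower. Under those limits Ccl17 stood at a log2 ratio of 2.81, Plac8 at 0.81 and Ccl8 at -1.97. Ccl8, a chemokine of tissue macrophages, was at 80.2 CPM against 309. Other macrophage genes that were lower included Ccl7 and Ccl2, monocyte attractants with log2 ratios of -1.42 and -1.09, F13a1, the coagulation factor XIII subunit, at -1.55, Ctsd, the lysosomal protease cathepsin D, at -1.13, and Trem2, a lipid-sensing receptor, at -1.08. Cx3cr1, the fractalkine receptor, was at -1.85, and at -0.56 with the comparison cells held to the limits.

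By gene list, the Il1b-led cells held less of the mature macrophage genes. Of 17 such genes past the filter 15 were lower than in the other Lyz2 cells and 1 was lower by 2-fold, with a median log2 ratio of -0.55, and Apoe, a lipid carrier, stood at 3429 CPM against 6767. The lipid-associated list, which shares Apoe and Trem2 with it, had a median of -0.73 over 13 genes with 2 lower by 2-fold, while Lpl, lipoprotein lipase, went the other way at 285 CPM against 163. Of 13 glycolysis genes 12 were higher, with a median of 0.30 and 1 past 2-fold. All 8 MHC class II genes were higher, with a median of 0.20 and none past 2-fold, and H2-Ab1 stood at 7393 CPM against 6127. Of 10 inflammasome and interleukin 1 genes outside the choice 5 were higher, with a median of 0.07. Within that list Il1a, the gene of interleukin 1 alpha, was at 349 CPM against 572, Il1rn, the receptor antagonist, at 235 against 190 and Nlrp3, the inflammasome sensor, at 683 against 611. NF-kB targets had a median of 0.15 over 18 genes, none of them past 2-fold. Tnf stood at 198 CPM against 281.

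**Figure D2:**
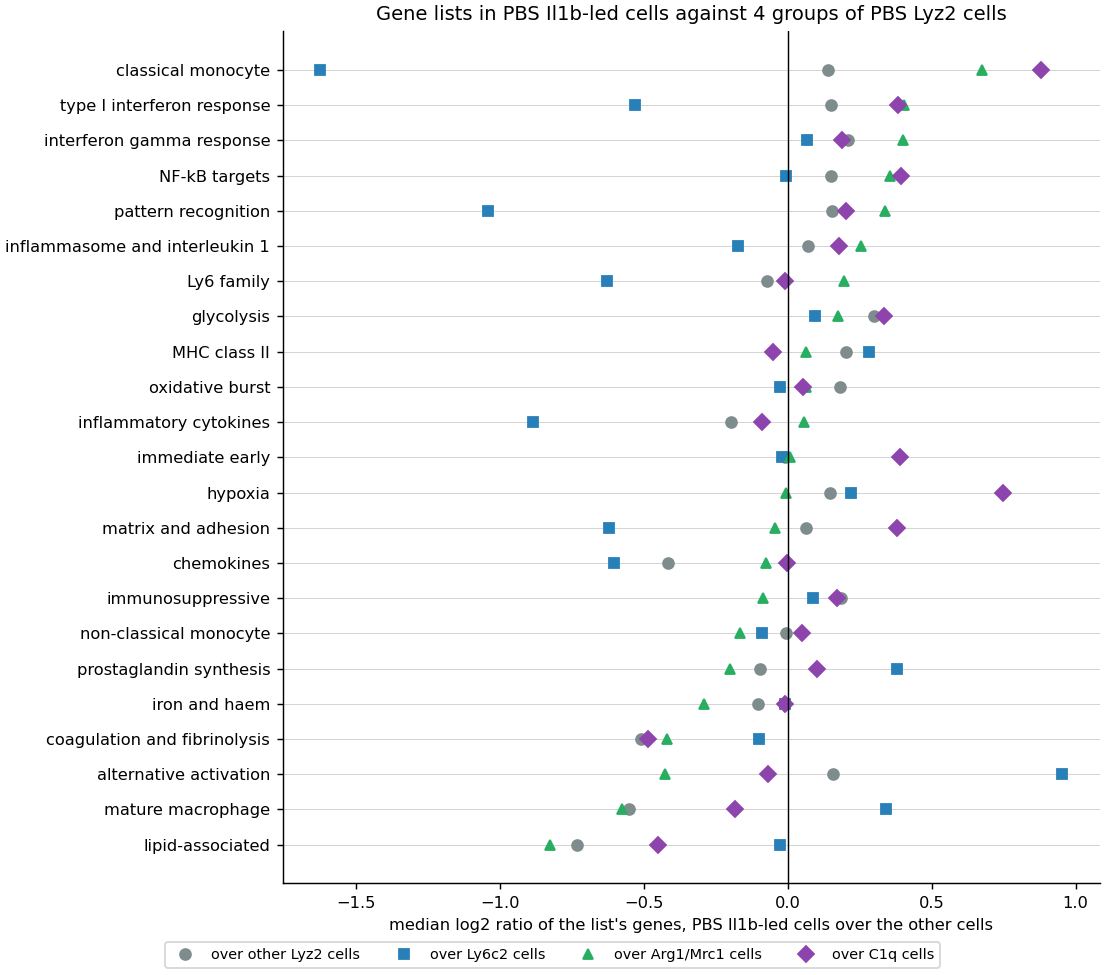
Median log2 ratio of the PBS Il1b-led cells over each of 4 groups of PBS Lyz2 cells, for 23 gene lists (genes of the choice left out), with 1 point per list and group and a line at 0. The classical monocyte list lies at -1.63 against the cells with Ly6c2 and at 0.67 against the cells with Arg1 and Mrc1, and the mature macrophage list at 0.34 and -0.58.

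Lyz2 cells with at least 5 UMIs of Ly6c2 and within the same limits on other cell types numbered 99 in PBS, at a median of 6546 UMIs. No limit on Arg1 and Mrc1 was set for them, unlike for the Il1b-led cells. Arg1 stood at 994 CPM in the cells with Ly6c2 against 108, and Mrc1 at 238 against 249. The part of Arg1 in the differences below was not tested. The cells with Ly6c2 held more of the markers than the Il1b-led cells, at 3323 CPM of Il1b, 548 of Fn1 and 690 of Ly6i. F10 was nearly equal at 336. Of 3669 genes 86 were higher in the Il1b-led cells, 2.34%, and 74 lower, 2.02%, with a median log2 ratio of 0.02. All 11 classical monocyte genes past the filter were lower and 10 of them by 2-fold, with a median of -1.63. Among them Vcan, a matrix proteoglycan, stood at 9.40 CPM against 156, Hp, haptoglobin, at 26.0 against 145, Plac8 at 656 against 1625 and Ccr2 at 257 against 656. Of 13 pattern recognition genes 7 were lower by 2-fold, with a median of -1.04, Tlr2 among them at a log2 ratio of -2.04. Alox5ap, the activator of leukotriene synthesis, stood at 249 CPM against 622, and Tnf at 198 against 398. Of 15 type I interferon genes 5 were lower by 2-fold, with a median of -0.53, among them Slfn4 at 20.5 CPM against 142 and Irf7 at a log2 ratio of -1.56.

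The matrix and adhesion list was mostly lower than in the cells with Ly6c2: of 17 genes 2 were higher, both by 2-fold, and 6 were lower by 2-fold, with a median of -0.62, Spp1, osteopontin, among the lower at 20.5 CPM against 109.5. Among the genes with the highest ratios, Mmp13, a collagenase, had 486 UMIs in the Il1b-led cells and 1 in the cells with Ly6c2. Mmp9, Mucl1 and C6 had 0 UMIs there, and were at least 18.5-, 56.9- and 16.1-fold higher against a floor of 3 UMIs in the group, although the Mucl1 UMIs came from few cells, as given below. Mgl2, a lectin of alternatively activated macrophages and dendritic cells, stood at 462 CPM against 48.4, Mmp12, macrophage elastase, at 847 against 147, and Cadm1, an adhesion molecule, at 177 against 9.96. Of the mature macrophage list 12 of 17 genes were higher, with a median of 0.34. All 8 MHC class II genes were higher, with a median of 0.28 and none past 2-fold. The alternative activation list had a median of 0.95 but a lower sum, 4618 CPM against 9558, since Chil3, a secreted chitinase-like protein, stood at 2423 against 8654. Jchain, a plasma cell gene, was at 9.40 CPM against 505, and only 1 of the 99 cells with Ly6c2 held 10 or more UMIs of Igkc, Igha and Jchain.

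Lyz2 cells above the limit on Arg1 and Mrc1, with at most 1 Ly6c2 UMI and within the other limits, numbered 465, at a median of 9588 UMIs. Il1b stood there at 1399 CPM and Fn1 at 158, the latter close to the 166 of the Il1b-led cells. Of 3642 genes 39 were higher in the Il1b-led cells, 1.07%, and 52 lower, 1.43%, with a median of 0.03. Ccl17 was again first with a log2 ratio of 3.73 (3.38 to 4.09), at 236 CPM against 17.8, and Plac8 next at 2.46. S100a6, a calcium-binding protein, stood at 216 CPM against 47.3, Ms4a4c at 108 against 28.2, and Clec4e, the Mincle receptor, at 120 against 46.7. All 11 type I interferon genes were higher, with a median of 0.40 and 1 past 2-fold. Lower were Gdf15, a stress cytokine, at 7.19 CPM against 55.6, Ccl8 at a log2 ratio of -2.28, Atp6v0d2, a proton pump subunit, at 119 CPM against 444, Gpnmb, a glycoprotein of lipid-laden macrophages, at 126 against 345, and Fabp5, a fatty acid binding protein, at 405 against 995. Of 17 mature macrophage genes 16 were lower, with a median of -0.58, and C1qa stood at 889 CPM against 1572.

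The 68 C1q cells had at least 5 C1q UMIs, a sum of the chosen genes below 5 and all other limits met, and were shallow, at a median of 3043.5 UMIs. Of 3528 genes 108 were higher in the Il1b-led cells, 3.06%, and 34 lower, 0.964%, with a median of 0.06. Genes outside the choice that were higher included Plac8 at 656 CPM against 87.1, Il1rn at 235 against 40.2 and Ptgs2 at a log2 ratio of 2.21 (1.71 to 2.76). All 18 NF-kB targets past the filter were higher, with a median of 0.39 and 2 past 2-fold, and all 13 glycolysis genes, with a median of 0.34 and none past 2-fold. Ccl17 did not separate these groups: it stood at 224 CPM in the C1q cells, with UMIs in 13.2% of them. Gpnmb at 546 CPM, Ctsd at 502 and Apoe at 7123 were higher in the C1q cells than the 126, 196 and 3429 of the Il1b-led cells.

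Set between the cells with Ly6c2 and those with Arg1 and Mrc1, the Il1b-led cells took a middle level for most genes. Of 3602 genes, leaving out those of the choice and mitochondrial, ribosomal, immunoglobulin and unnamed genes, 350 differed by 2-fold between those 2 groups, and 343 of them had at least 3 UMIs in each of the 3 groups. For 313 of the 343, or 91.3%, the Il1b-led level lay between the other 2. Picking genes by the difference between the outer groups places another group between them more often, so the share is a description. The cells with Ly6c2 had no limit on Arg1 and Mrc1, and Arg1 stood at 994 CPM in them and at 1538 in the cells with Arg1 and Mrc1. On a log2 scale running from 0 for the cells with Arg1 and Mrc1 to 1 for the cells with Ly6c2, the median was 0.47 for the 159 genes higher with Ly6c2 and 0.39 for the 184 genes higher with Arg1 and Mrc1. Plac8 lay at 0.65, Ccr2 at 0.57 and Clec4e at 0.50, and of the macrophage genes C1qa at 0.56 and Mertk at 0.50. Chil3 lay outside, below both, at -0.79, and Mgl2 just above the cells with Arg1 and Mrc1, at -0.07. Ccl17 is not among the 343, since the outer groups were alike at 17.1 and 17.8 CPM.

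**Figure D3:**
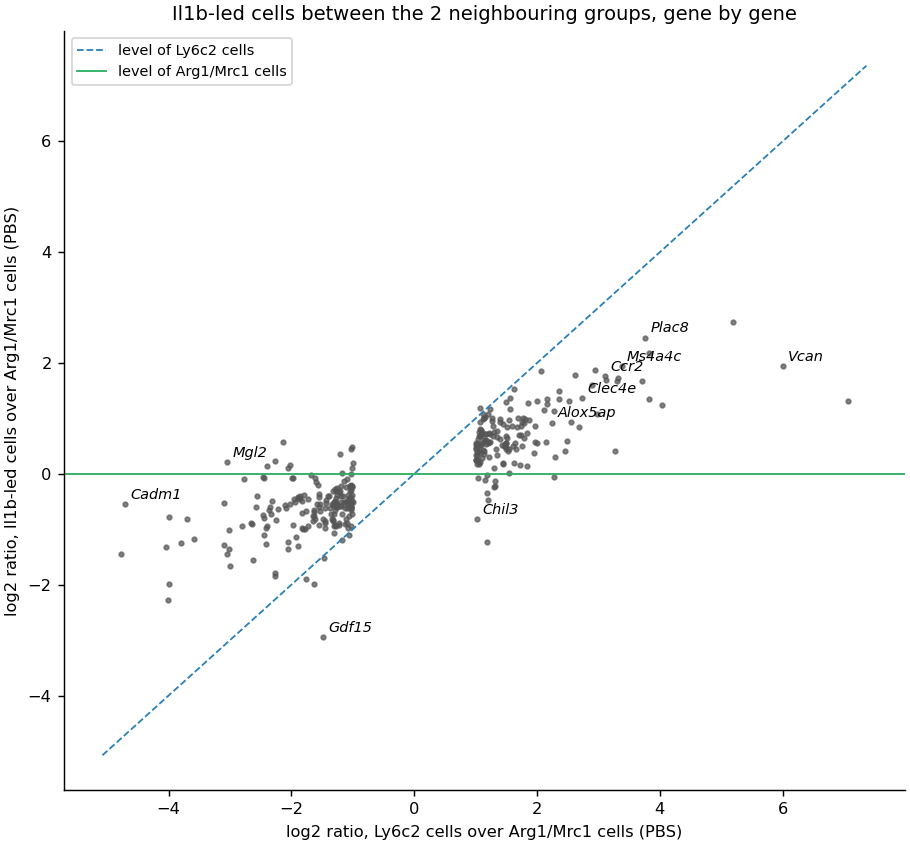
For 343 genes that differed by 2-fold between PBS Lyz2 cells with Ly6c2 and those with Arg1 and Mrc1, the log2 ratio of the Il1b-led cells over the latter (vertical) against that of the cells with Ly6c2 (horizontal), 1 point per gene. Points between the horizontal line at 0 and the diagonal are the 313 genes at a middle level.

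The Il1b-led cells were not uniform. Over 3044 genes the variance between the PBS cells was a median of 1.50 times that of sampling alone at each cell's depth, and the genes furthest above were Mucl1 at 108, Chil3 at 89.0, Apoe at 54.1, Cxcl10 at 44.9, Rsad2 at 41.3 and Ccl17 at 35.5. Some of these were spread over most cells, as Chil3 in 176 and Apoe in 183 of the 234. Others sat in a few cells. Mucl1, a small secreted mucin-like protein, had UMIs in 15 cells, with 98.9% of its 439 UMIs in 10 cells and 250 in 1 cell. Rsad2, the antiviral protein viperin, had UMIs in 26 cells, Gpnmb in 21 and Saa3, a serum amyloid protein, in 13. Ccl17 had UMIs in 42 cells, 80.1% of them in 10 cells and 155 in 1 cell.

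Splitting the cells by Ccl17, a split chosen after its values were seen, gave 42 cells with UMIs of it (median 8808 UMIs) and 192 without (median 6695.5), and the part of depth in the split was not tested. Of 3185 genes 30 were higher in the cells with Ccl17, 0.942%, and 118 lower, 3.7%, with a median of -0.06. Plet1, a surface glycoprotein, had UMIs in 22 of the 42 cells and 26 of the 192, at 937 CPM against 92.0, a log2 ratio of 3.35 (3.06 to 3.65). Without the cell that held most Ccl17 it was 2.81. Mmp12 had UMIs in 39 and 75 cells, at 1979 CPM against 531. Mgl2 stood at 948 against 327, Cst3, cystatin C, at 4728 against 1908, and H2-DMb2, which loads peptide on MHC class II, at 507 against 164. All 8 MHC class II genes were higher, with a median of 0.35 and 1 past 2-fold, and Il1r2 stood at 1231 CPM against 698. Mucl1 also stood high, at 1024 CPM against 24.8, but in 4 of the 42 cells against 11 of the 192.

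The genes of the choice differed in direction between these cells. In those with Ccl17, Il1b stood at 1642 CPM against 2961 and Ly6i at 139 against 222, while Fn1 stood at 236 against 147 and F10 at 433 against 333. Ptgs2 stood at 350 against 556. All 7 classical monocyte genes past the filter were lower, 4 by 2-fold, with a median of -1.13, and Plac8 stood at 200.2 CPM against 783. All 11 type I interferon genes were lower, 6 by 2-fold, with a median of -1.14. Apoe stood at 1432 CPM against 3987, Chil3 at 1257 against 2748, Maf, a transcription factor of resident macrophages, at 68.4 against 233 and Hmox1, haem oxygenase 1, at 32.9 against 195. Ccl7 had 1 UMI in the 42 cells against 130 UMIs. Mmp9 had 0 against 143, at least 13.3-fold lower against a floor of 3 UMIs. Conventional dendritic genes moved with the split: the 10-gene list summed to 248 CPM in the cells with Ccl17 and 113 in those without, and 9 of the 42 and 5 of the 192 cells held 5 or more of its UMIs. Dpp4, a surface peptidase, stood at 86.1 CPM against 43.9, Kmo, an enzyme of tryptophan breakdown, at 68.4 against 17.7, and Clec9a, a receptor for dead cells, at 48.1 against 38.9. Zbtb46, a transcription factor of dendritic cells, had 6 UMIs against 3. Flt3, held to 0 by the choice, and Xcr1 and Ccr7 were at 0 UMIs in both. The neutrophil list summed to 1335 CPM against 924, but Il1r2 gave 486 of its 527 UMIs with Ccl17 and 986 of 1306 without. Retnlg, Mmp9 and G0s2 of that list had UMIs only in the cells without Ccl17. The part of these markers in the split was not tested.

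**Figure D4:**
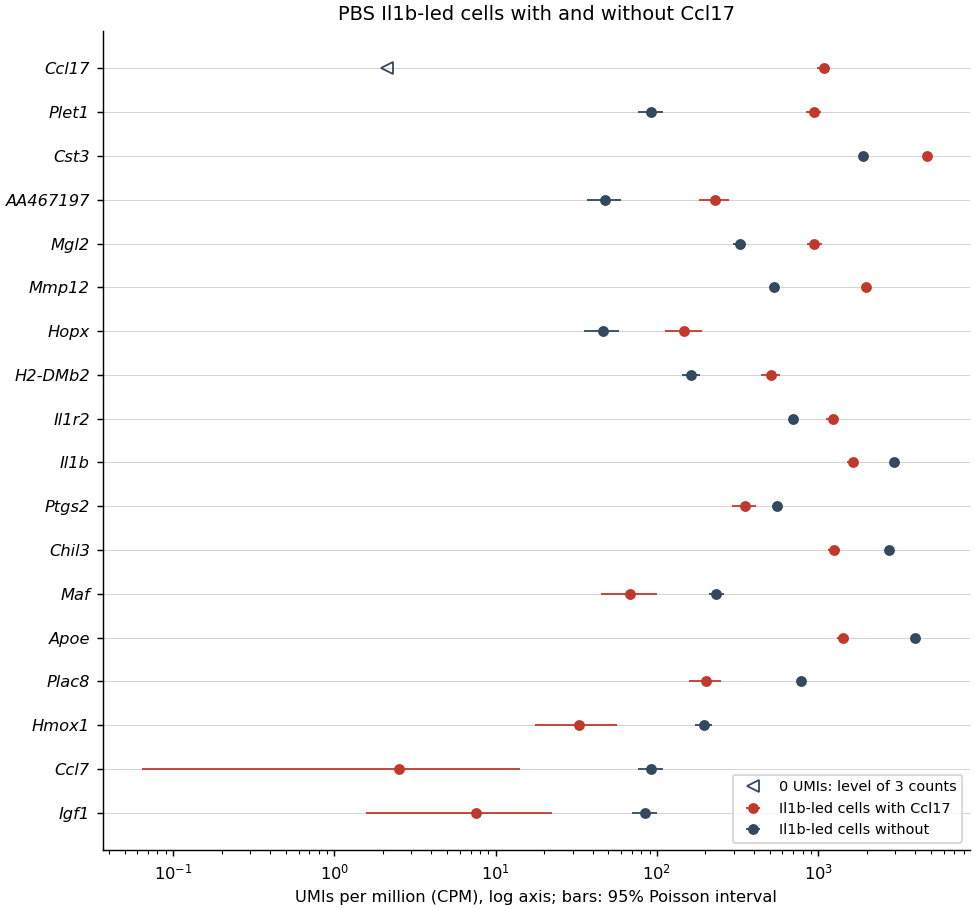
Summed CPM (log axis) of genes in the 42 PBS Il1b-led cells with Ccl17 UMIs and the 192 without, 1 pair of points per gene with exact 95% Poisson intervals and, for Ccl17 at 0 UMIs, an open triangle at the level of 3 UMIs. Plet1, Mmp12, Mgl2 and Cst3 lie higher in the 42 cells, and Il1b, Apoe, Plac8, Chil3 and Hmox1 lie lower.

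The route by which a cell entered also went with its other genes. The 126 cells that entered on Il1b alone (median 6730.5 UMIs) were compared with the 100 cells in which Fn1, F10 and Ly6i summed to at least 5 (median 7402), a grouping chosen after seeing that 4 cells had Fn1 alone. Of 3069 genes 32 were higher with Il1b alone and 32 lower, 1.04% each. The median over all 3069 genes is not reported here, so list genes counted short of 2-fold have no background beside them. Of 17 mature macrophage genes 16 were higher with Il1b alone, with a median of 0.51 and 1 past 2-fold, and Apoe stood at 4006 CPM against 2233. All 20 immediate early genes were higher, with a median of 0.36 and none past 2-fold, Fosb among them at 2084 CPM against 1192. Adamdec1, a metalloprotease of tissue macrophages, stood at 510 CPM against 118, in 44 and 19 cells, Ptgs1 at 239 against 79.6 and P2rx7, the ATP receptor upstream of the inflammasome, at 213 against 72.3.

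Of 13 glycolysis genes 12 were higher in the 100 cells with Fn1, F10 or Ly6i, none of them by 2-fold, so that the ratio of Il1b alone over these cells had a median of -0.54, and Pgk1, phosphoglycerate kinase, stood at 476 CPM against 782. Of 10 hypoxia genes 9 were higher in them, 2 past 2-fold, with a median of -0.72, and Ndrg1 stood at 40.9 CPM against 138 and Ero1l at 99.4 against 271. Ccl5, a T cell attractant, stood at 255 CPM against 909, Nos2, inducible nitric oxide synthase, at 33.1 against 132, and Inhba, the activin A subunit, at 24.3 against 95.6. Ccl17 stood at 78.4 CPM against 435, in 18 and 23 cells. When each cell weighed equally the log2 ratio of Ccl17 moved from -2.47 to -1.51 and that of Ccl5 from -1.83 to -1.15.

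The EM counterpart was 10 cells with 26454 UMIs in all, and 4 of them entered on Il1b, 2 on Fn1 and 1 on F10 at 5 UMIs or more. Their levels set beside those of the PBS cells cannot be told apart from differences between 2 libraries of unlike depth and sex-linked expression. Of 4158 genes that reached 50 CPM in the higher group and 20 UMIs over both, 1029 were higher in EM, 24.7%, and 977 lower, 23.5%, so that passing 2-fold was common at this depth. Scaling by the median of gene ratios in place of the total moved all log2 ratios down by 0.35 and gave 687 higher and 1269 lower. In the other Lyz2 cells 9.4% of 3860 genes were higher and 12.8% lower.

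Of the classical monocyte list 10 of 11 genes were higher in the EM Il1b-led cells, all 10 by 2-fold, and Chil3 was lower, at 567 CPM against 2423. Of the type I interferon list 18 of 19 were higher, 14 by 2-fold, and 1 was lower by 2-fold. Slfn4, an interferon-induced gene of monocytes, stood at 907 CPM (24 UMIs) against 20.5, a log2 ratio of 5.47 (4.67 to 6.25), and at 3.57 with each cell weighed equally. Ifitm6 had 24 UMIs and S100a4 21, with log2 ratios of 4.90 and 4.42, and F5, coagulation factor V, had 11 UMIs and 5.31. Plac8 stood at 3969 CPM (105 UMIs) against 656 and Ccr2 at 1134 against 257. Summed, the type I interferon list stood at 6237 CPM against 1769, a log2 ratio of 1.82 (1.58 to 2.04), beside 2.60 in the other Lyz2 cells. The classical monocyte list stood at 10055 CPM against 4107, a log2 ratio of 1.29 (1.11 to 1.47), beside 0.51 in the other Lyz2 cells. Neither difference between the kinds of cell was tested.

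Of the mature macrophage list 5 of 17 genes were higher in the EM Il1b-led cells, 1 by 2-fold, and 10 were lower by 2-fold, and the list summed to 8203 CPM against 13059, a log2 ratio of -0.67 (-0.87 to -0.48). The higher ones included Adgre1, the F4/80 antigen, at 454 CPM (12 UMIs) against 169, and Csf1r at 1436 CPM against 832, and Lyz2 stood at 18371 against 4556. None of 8 MHC class II genes was higher and 7 were lower by 2-fold, and the list summed to 11681 CPM against 31495, a log2 ratio of -1.43 (-1.60 to -1.27), beside -0.33 in the other Lyz2 cells. Hypoxia genes summed to a log2 ratio of -1.91 and alternative activation genes to -1.58, beside -1.28 and -1.73. Cxcl9, a chemokine induced by interferon gamma, had 2 UMIs, 75.6 CPM against 1952. Il1r2 had 1 UMI, 37.8 CPM against 814. Ptgs2, Ccl17, Mertk, Arg1, Il1a, Lpl, Gpnmb and Mgl2 had 0 UMIs, where 3 UMIs would equal 113 CPM. Against a floor of 3 UMIs, Ptgs2 at 511 CPM in PBS was 4.51-fold lower in EM. Its counting interval reached up to a log2 ratio of -1.87, a smaller difference. Ptgs2 was also lower in EM in the other Lyz2 cells, at 96.2 CPM against 338, a log2 ratio of -1.81 (-2.09 to -1.55). Whether the fall in Ptgs2 differed between the kinds of cell was not tested. For Gpnmb at 126 CPM and Arg1 at 108 CPM the 10 cells are too shallow for a difference to be detectable.

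**Figure D5:**
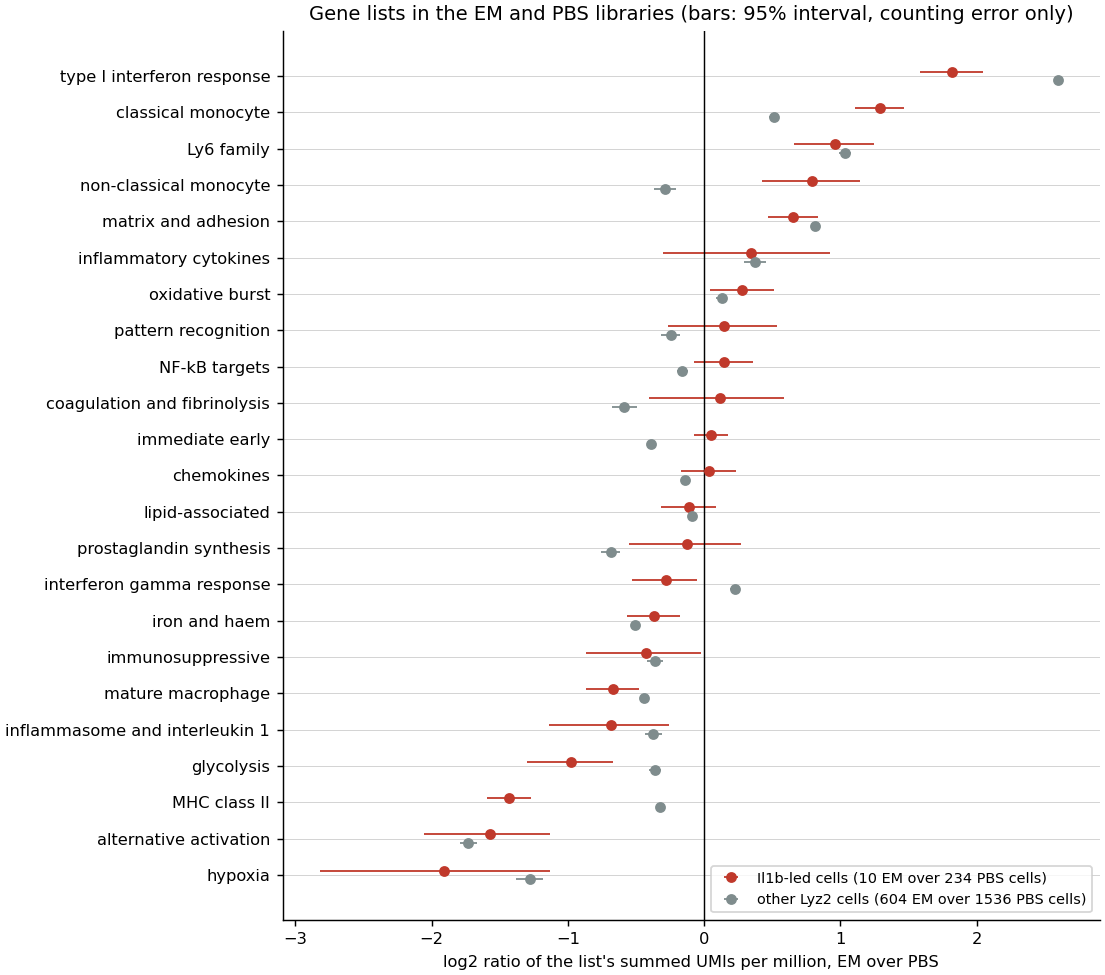
Log2 ratio of EM over PBS of each gene list's summed CPM, for the Il1b-led cells (10 EM and 234 PBS cells) and for the other Lyz2 cells, with exact 95% counting intervals and a line at 0. The type I interferon list is higher and the hypoxia list lower in both kinds of cell, and the MHC class II list lies at -1.43 in the Il1b-led cells.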

How the data were processed

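The submitters' processing notes name CASAVA 1.8, STARsolo and the mm10 build. The labels do not state the annotation, the cell calling or a treatment of doublets. The deposited values are raw UMI counts per gene and barcode, whole numbers with no normalization, and no barcode held fewer than 500 UMIs. Both libraries were filtered to barcodes with at least 500 UMIs, at least 200 genes and at most 20% mitochondrial UMIs. No doublet caller was run.

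UMIs were summed over the cells of a group and expressed as CPM, and log2 ratios of CPM were taken without a pseudocount. Ratios carry exact conditional binomial intervals, levels exact Poisson intervals and shares exact Clopper-Pearson intervals, all at 95%. They cover counting error only, take cells of 1 library as a single sample and are no test. A count of 0 was given a floor of 3 UMIs over the group. A gene counted as higher or lower when it passed 2-fold with at least 50 CPM in the higher group and 100 UMIs over both. For EM over PBS Il1b-led cells, where EM had under 50 cells, 20 UMIs were asked instead. The limits on microglial (Sparc, P2ry12, Tmem119, Gpr34), dendritic (Flt3), T cell (Cd3d, Cd3e, Cd3g), neutrophil (S100a8, S100a9) and cycling genes (Mki67, Top2a, Birc5, Ccna2) were at most 1, 0, 1, 4 and 2 UMIs. The T cells used as a background were chosen to hold no Lyz2 UMI, so the level of free RNA read from them may be low.

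Named genes were the 12 highest and 12 lowest ratios against the other Lyz2 cells, the 6 highest and lowest against each of 3 kinds of Lyz2 cells, the 8 highest and lowest of EM over PBS, and up to 4 per gene list, leaving out mitochondrial, ribosomal, immunoglobulin, T cell receptor and unnamed genes. The text prints part of them, and a few are not reported here. The members and the lists were chosen with earlier results of these data known. The splits by Ccl17 and by route, and the genes named for them, were chosen after their values were seen.

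Gene positions came from GENCODE M21 on GRCm38, the assembly of mm10, in which 31107 of 31253 genes were found. Python 3.11.15, numpy 2.4.6, scipy 1.17.1, pandas 2.3.3 and matplotlib 3.10.9 were used, and the ratio step and the choice of cells were tested on simulated data.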

Additional observations from a re-analysis of the deposited data

How the results depend on the processing

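With 1 library per group no library could be left out and no spread between animals could be had, and 1 UMI in the 10 EM Il1b-led cells equals 37.8 CPM, which limits every EM level. No paired analysis was possible because each group had 1 library and no result came from a test. The EM share of Il1b-led cells was lower than the PBS share under every choice of cells tried, with ratios from 0.0235 (a sum of at least 8) to 0.0773 (cells thinned to 1000 UMIs), apart from 0.246 with a sum of at least 10 per 10000 UMIs. Over Lyz2 cells, a set of values added after seeing the data, the ratio was 0.123, and moved to 0.286 when thinned to 2000 or 1000 UMIs and to 0.727 with the sum per 10000 UMIs. The PBS count was 234, and moved to 102 when thinned to 1000 UMIs and to 100 with Il1b left out of the sum. The EM count was 10, and moved to 57 with a sum of at least 10 per 10000 UMIs, to 16 with a sum of at least 3 or with up to 3 Ly6c2 UMIs, to 5 with a sum of at least 8 and to 4 without Il1b. Against the other PBS Lyz2 cells, 14 genes were higher and 62 lower. These counts were 28 and 104 when thinned to 2000 UMIs, 253 and 1101 with no CPM filter and at least 20 UMIs, and 9 and 36 with the comparison cells within the limits on other cell types. In that last setting, among named genes that had been past 2-fold, the log2 ratios turned positive for Cenpe (0.53), Gzmb (0.093), Cd8a (0.51), S100a9 (0.63) and Top2a (0.70). EM over PBS gave 1029 higher and 977 lower genes, with 651 higher when thinned to 2000 UMIs and 3373 lower with no CPM filter. Thinned to 2000 UMIs, the shares of PBS Il1b-led cells with a UMI were 18.9% for Fn1, 41.5% for F10, 24.4% for Ly6i, 88.5% for Il1b and 40.1% for Ptgs2. The cause of these shifts was not tested, beyond the fewer UMIs of thinned cells and the larger number of genes without the filter. Of the values for single genes under these alternatives, 507 stayed within their counting interval and 136 moved further. Another 5, of genes that had been past 2-fold, turned sign, and a change of sign in other genes was not counted apart. With the comparison cells within the limits on other cell types, 8 values stayed, 33 moved further and 5 turned sign. Among alternatives added after seeing the data, leaving out the 1 cell with Ly6c2 and 10 or more UMIs of immunoglobulin genes and Jchain placed 319 of 349 genes between the neighbouring groups, and equal weight per cell placed 318 of 343.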
